A study of Mus musculus with 4 samples.

Results

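The genes described here are the collagen chains of the mouse, that is, the protein-coding genes named Col, a number, a and a number in the authors' deposited table of the comparison. By that rule 39 genes are members, of 18378 rows in that table and 49585 genes in the count files. They were grouped by the assembly their protein is known for: 11 fibrillar chains, 5 basement membrane chains, 7 fibril-associated chains (FACIT), 3 network-forming chains, 4 beaded-filament chains and 4 transmembrane chains, with 5 members outside the 6 classes. All 4 libraries were made from C2C12 cells, a mouse myoblast line of strain C3H that fuses into myotubes when serum is lowered. The control cells (empty vector, n = 2) carried the empty retroviral vector pLXSN, and the overexpressing cells (C/EBPβ, n = 2) carried a retrovirus for C/EBPβ, a leucine zipper transcription factor. Stable pools, not single clones, were used in both groups: 7 days of selection in 1200 µg/ml G418, 2 days of proliferation, and then, from 90% confluency, 2 days of differentiation in 2% horse serum. Growth medium held 10% serum. Separate cultures behind the libraries of a group are not stated in the labels. The p-values therefore reflect library-to-library spread, which may be technical.

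Collagens are secreted or membrane proteins in which 3 chains wind into a rod of repeated glycine triplets. Fibrillar collagens build the fibres of connective tissue, type IV collagen builds the sheet of basement membranes, and type VI collagen forms beaded filaments that lie between fibres and basement membrane. In skeletal muscle most fibrillar collagen is made by interstitial fibroblast-like cells, and type IV and VI collagens surround each muscle fibre.

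The libraries held 36461091 to 51537847 fragments assigned to genes. Cebpb stood at 42.7 and 41.3 CPM in the empty-vector libraries and at 502 and 442 CPM in the C/EBPβ libraries, where CPM is fragments of a gene per 1000000 of the TMM-scaled library. Of 15886 genes tested, 6864 passed an adjusted p of 0.05 in edgeR's quasi-likelihood test, which is 43.2% of genes, with 22.3% of genes higher and 20.9% lower in the C/EBPβ cells. Muscle markers were detected in all libraries, and 6 of 7 fell and 1 rose, with a summed level of 13600.3 and 14690.1 CPM in the controls and 3837 and 5681 CPM in the C/EBPβ cells. Of 8 listed markers of fibroblasts and fibro-adipogenic progenitors, 6 were tested and 5 rose (Dpt, Twist2, Pi16, Pdgfra and Osr1), beside 22.3% of all genes tested. The sixth, Ly6a, did not pass and lay lower in both C/EBPβ libraries, at 200 and 134 CPM beside 205 and 210 CPM in the controls (log2 fold change -0.32). The summed level of these markers ran from 245 to 249 CPM in the controls, most of it Ly6a, and from 302 to 385 CPM in the C/EBPβ cells. Among these markers Tcf21 had 0 fragments in every library, and Thy1 had 3 fragments in 1 control and 0 elsewhere. Their part in the collagen results was not tested, and in bulk RNA fewer cells of a type and less RNA per cell cannot be told apart. Of the listed markers of cartilage (Acan and Matn1) and of bone (Ibsp), these 3 were at 0 fragments in every library. The others had fragments, namely Sox9 and Hapln1 for cartilage and Dmp1, Sp7 and Bglap for bone. Sp7 had 26 and 16 fragments in the controls and 14 and 7 in the C/EBPβ cells. The 4 bone markers summed to at most 13.1 CPM, most of it Dmp1, and the 4 cartilage markers to at most 70.7 CPM, nearly all of it Sox9.

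Most collagen chains rose with C/EBPβ, while a smaller set of basement membrane, transmembrane and other chains fell. Of the 39 members, 35 had enough fragments to be tested. Of these, 21 were higher and 7 lower, and 7 did not pass, beside 22.3% and 20.9% of all genes tested. The share of members that fell is thus near that of all genes. The median log2 fold change (C/EBPβ over empty vector) of the tested members was 0.74, beside 0.01 for all genes tested. The 4 untested members were Col2a1, Col4a4, Col9a3 and Col22a1. Of the tested members, 31 were over the cutoff of the filter on low counts in both libraries of both groups. Another 3 passed it through both libraries of 1 group only, where they were high. These were Col6a4 and Col11a1 through the C/EBPβ libraries and Col13a1 through the controls. The counts of members higher and lower include these 3. In the 35 tested members the groups did not overlap in CPM for 33, beside 75.1% of all genes tested. At most 1.85% of the 50-base windows of a member's transcripts (Col26a1) occurred in the transcripts of another gene.

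**Figure D1:**
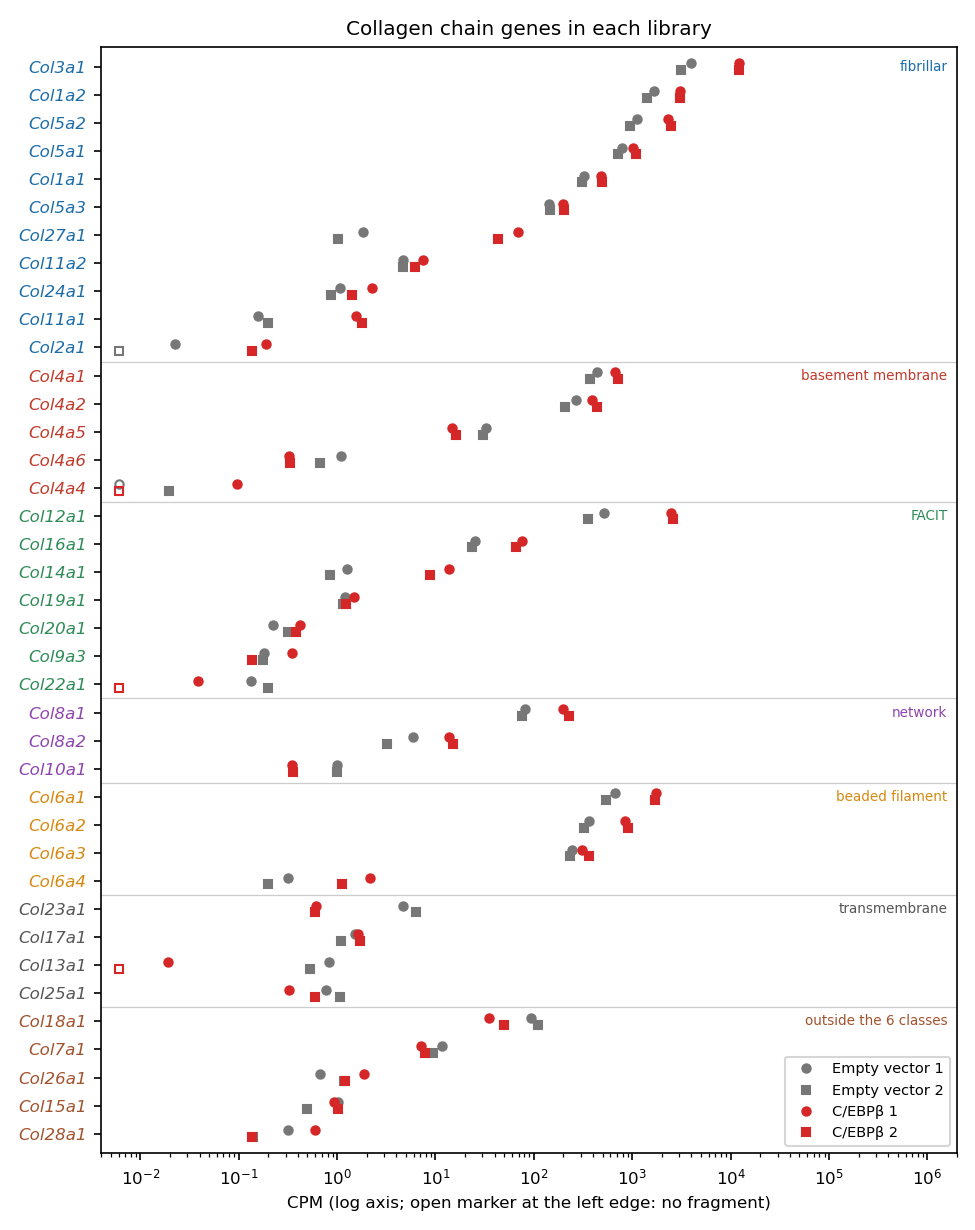
CPM (log axis) of each of the 39 collagen chain genes in the 4 libraries, ordered by class and by level; grey marks are empty-vector libraries, red marks C/EBPβ libraries, circles replicate 1 and squares replicate 2, and an open mark at the left edge stands for no fragment. The levels run from no fragment in single libraries of Col2a1, Col4a4, Col13a1 and Col22a1 to 12194 CPM for Col3a1, and the red marks lie right of the grey ones for every fibrillar chain.

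Collagen fragments made up 1.05% and 0.881% of assigned fragments in the empty-vector libraries and 2.70% and 2.67% in the C/EBPβ libraries. The groups did not overlap, and the mean was 2.78-fold higher (0.968 ± 0.122% against 2.69 ± 0.0190%, SD, n = 2 each). With 2 libraries against 2, an exact permutation test cannot give a 2-sided p below 0.333, so this share was not tested. The FACIT class went from 0.0456 ± 0.0111% to 0.267 ± 0.00507% of assigned fragments, 5.86-fold, and from 93.2% to 97.2% of its fragments in each library came from Col12a1. Without Col12a1, an alternative chosen after seeing the data, the FACIT share was 3.22-fold higher. The fibrillar, beaded-filament and network classes were 2.75-fold, 2.56-fold and 2.80-fold higher, and the basement membrane class was 1.74-fold higher. The transmembrane chains and the members outside the classes went the other way, at 0.340 and 0.473 of their control share. Col3a1 alone gave 37.0% and 34.8% of collagen fragments in the controls and 46.7% and 45.6% in the C/EBPβ cells. Without Col3a1 the share of all other members still stood 2.34-fold higher.

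**Figure D2:**
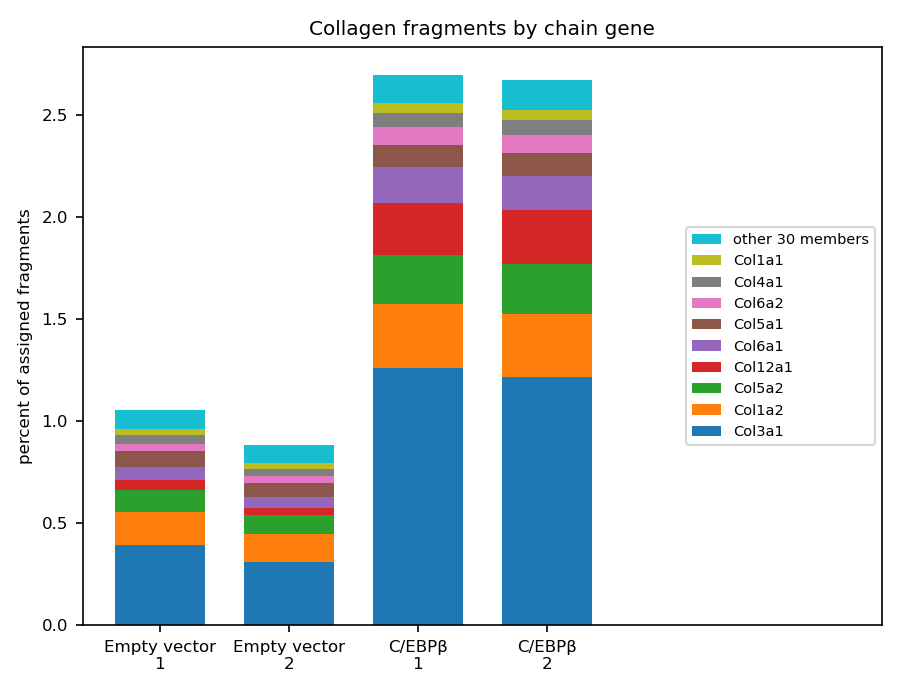
Collagen fragments as a percent of all assigned fragments in each of the 4 libraries, stacked by gene; the 9 genes with the most fragments are shown singly and the other 30 members together. The whole bars reach 1.05% and 0.881% in the empty-vector libraries and 2.70% and 2.67% in the C/EBPβ libraries, and Col3a1 is the largest block in all 4.

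Among the fibrillar chains, all 10 that were tested rose, beside 22.3% of all genes tested. Of these, Col11a1 was tested only through the C/EBPβ libraries, where it was high. Col3a1, the single chain of type III collagen, which is plentiful in young and elastic tissue, was the most abundant member. It stood at 3980 and 3128 CPM in the controls and at 12194 and 12142 CPM in the C/EBPβ cells. Its log2 fold change was 1.78 (SE 0.17, adjusted p = 0.000173 in edgeR's quasi-likelihood test, as for all adjusted p below). The C/EBPβ libraries lay close together, and both lay far above the higher control. On GRCm38, Col3a1 lies on chromosome 1 (45311538 to 45349706, plus strand), tail to tail with Col5a2 and 24614 bases from it. Col1a2, the chain present once in each type I molecule, stood at 1648 and 1414 CPM in the controls and at 3036 and 3051 CPM in the C/EBPβ cells (log2 fold change 0.99, SE 0.13, adjusted p = 0.000833). Col1a1, which supplies the other chains of type I collagen, moved less, from 319.7 and 309.7 CPM to 486 and 493 CPM (log2 fold change 0.64, SE 0.09, adjusted p = 0.00122). Both type I genes were separated between the groups, as were 75.1% of all genes tested.

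Type V collagen sits inside type I fibrils and sets their width. Col5a2 stood at 1110.2 and 950.5 CPM in the controls and at 2319.9 and 2469 CPM in the C/EBPβ cells (log2 fold change 1.22, SE 0.13, adjusted p = 0.000305). Col5a1 stood at 781 and 718 CPM and at 1007 and 1099.6 CPM (log2 fold change 0.49, SE 0.11, adjusted p = 0.00989). Col5a3, a chain found in fewer tissues, moved by a like amount, from 142 and 145 CPM to 199 and 200.5 CPM (log2 fold change 0.48, SE 0.08). All 3 type V genes were thus higher in both C/EBPβ libraries than in both controls, Col5a2 by the most. The groups did not overlap, in either direction, for 75.1% of all genes tested. Without empty-vector replicate 2, Col5a1 no longer passed (log2 fold change 0.43, adjusted p = 0.101).

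The largest rise of any member was that of Col27a1, a fibrillar chain known from developing cartilage (chromosome 4, 63214004 to 63334991, plus strand). It stood at 1.82 and 1.03 CPM in the controls and at 68.8 and 43.3 CPM in the C/EBPβ cells, a 39.4-fold difference of means (log2 fold change 5.32, SE 0.38, adjusted p = 0.000891). Both groups had a wide spread between replicates, and the groups still stood far apart. Col11a1, a type XI chain of cartilage fibrils, had 7 and 10 fragments in the controls and 82 and 66 in the C/EBPβ cells, or 0.157 and 0.198 CPM against 1.57 and 1.81 CPM (log2 fold change 3.22, SE 0.32, adjusted p = 0.000186). Its partner chain Col11a2 was more abundant in the controls, at 4.69 and 4.71 CPM, and stood at 7.41 and 6.21 CPM in the C/EBPβ cells (log2 fold change 0.54, SE 0.16, adjusted p = 0.0237). Col24a1, another minor fibrillar chain, stood at 1.08 and 0.870 CPM against 2.24 and 1.42 CPM (log2 fold change 0.93, SE 0.29, adjusted p = 0.0318). These last calls were fragile: leaving out either control library or C/EBPβ replicate 1 ended both, with an adjusted p of 0.0951, 0.111 and 0.132 for Col11a2 and of 0.0660, 0.183 and 0.219 for Col24a1. Col2a1, the main cartilage collagen, had 1 fragment in the controls and 15 in the C/EBPβ cells, a ratio of 16.1 with a 95% exact binomial interval from 2.47 to 677, which covers counting error only.

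**Figure D3:**
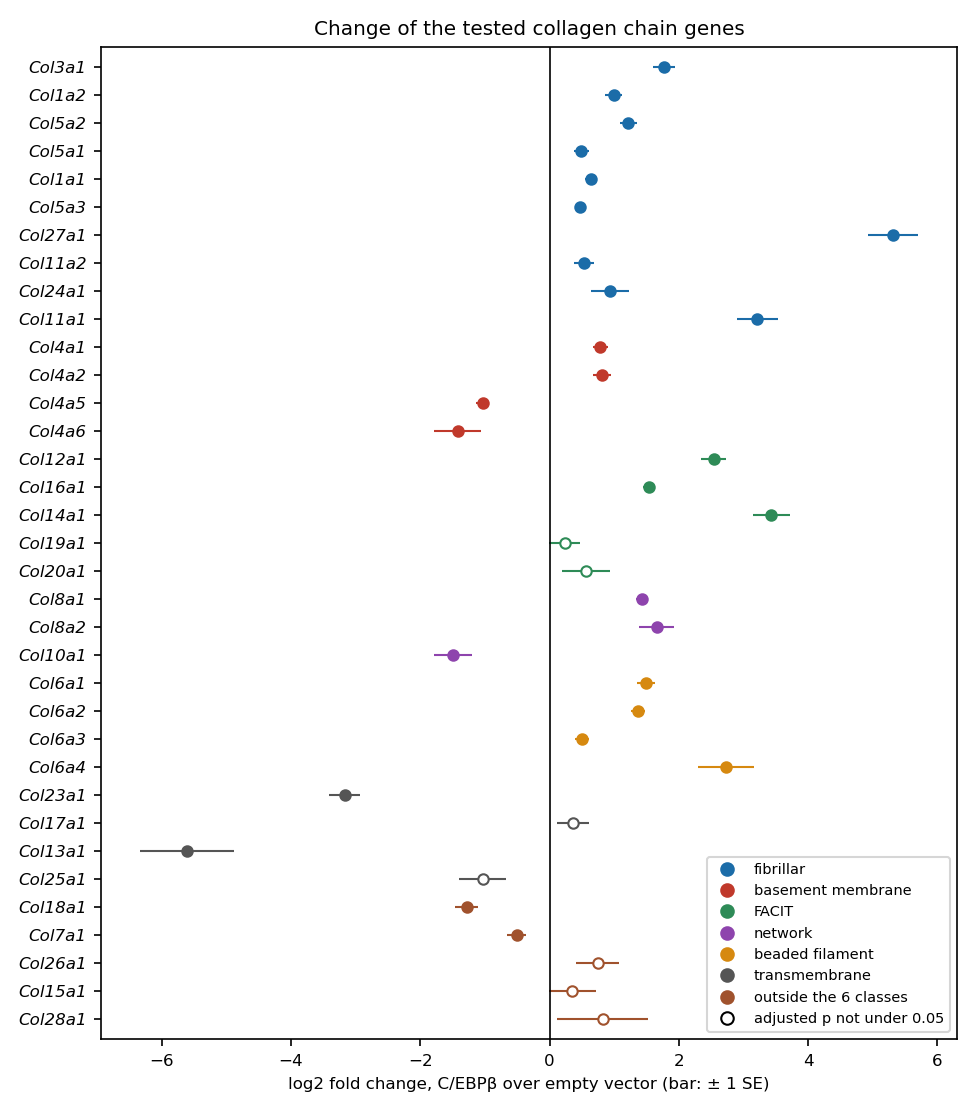
Log2 fold change of C/EBPβ over empty vector for the 35 tested collagen chain genes, coloured by class, with bars of 1 SE; open circles did not pass an adjusted p of 0.05. All fibrillar points lie right of 0, from 0.48 for Col5a3 to 5.32 for Col27a1, while the points furthest left are the transmembrane chains Col13a1 and Col23a1.

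The basement membrane chains split by gene pair. Col4a1 and Col4a2, the chains of the type IV network found in nearly every basement membrane, rose together. Col4a1 stood at 441 and 371 CPM in the controls and at 674 and 725 CPM in the C/EBPβ cells (log2 fold change 0.78, SE 0.12, adjusted p = 0.00145), and Col4a2 at 267 and 209.5 CPM against 391 and 443 CPM (0.81, SE 0.13, adjusted p = 0.00242). Col4a5 and Col4a6, chains of the type IV networks of kidney, smooth muscle and some epithelia, fell. Col4a5 stood at 32.8 and 30.4 CPM in the controls and at 14.8 and 16.1 CPM in the C/EBPβ cells (log2 fold change -1.04, SE 0.10, adjusted p = 0.000168), and Col4a6 at 1.10 and 0.672 CPM against 0.325 and 0.328 CPM (-1.42, SE 0.36, adjusted p = 0.0148). None of the 4 overlapped between the groups, beside 75.1% of all genes tested that did not overlap. Without empty-vector replicate 1, Col4a6 did not pass (log2 fold change -1.04, adjusted p = 0.104). Col4a4 had 1 fragment in the controls and 5 in the C/EBPβ cells.

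Each of these type IV pairs lies head to head on its chromosome, with the genes transcribed away from each other. Col4a1 (chromosome 8, 11198423 to 11312826, minus strand) and Col4a2 (11312805 to 11449287, plus strand) overlap by 22 bases in the annotation used for counting. Col4a6 (chromosome X, 141165403 to 141474076, minus strand) and Col4a5 (141475385 to 141689234, plus strand) lie 1308 bases apart. The members of each pair moved in the same direction. The promoter windows below, from RefSeq on GRCm38.p6, run from 250 bases before to 50 bases after the start, 5′ to 3′ on the strand of the gene. They are shown for these pairs, for the most abundant member (Col3a1), the largest riser (Col27a1) and the deepest fall (Col13a1). Capitals mark matches, on either strand, to any of 4 motifs. The motif CCAAT is bound by the factor NF-Y, GGGCGG is the site of Sp1 and its relatives, and TATAAA is a common core promoter element. TTGCNNAA is a loose form of the C/EBP site and takes in the strict palindrome TTGCGCAA.
Col4a1, chr8:11312777-11313076, minus strand: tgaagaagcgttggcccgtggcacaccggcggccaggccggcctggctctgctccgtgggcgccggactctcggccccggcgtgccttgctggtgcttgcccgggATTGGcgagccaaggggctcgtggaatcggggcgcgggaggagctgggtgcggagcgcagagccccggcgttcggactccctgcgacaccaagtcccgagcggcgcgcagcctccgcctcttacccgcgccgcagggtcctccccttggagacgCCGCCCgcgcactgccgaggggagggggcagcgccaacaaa
Col4a2, chr8:11312555-11312854, plus strand: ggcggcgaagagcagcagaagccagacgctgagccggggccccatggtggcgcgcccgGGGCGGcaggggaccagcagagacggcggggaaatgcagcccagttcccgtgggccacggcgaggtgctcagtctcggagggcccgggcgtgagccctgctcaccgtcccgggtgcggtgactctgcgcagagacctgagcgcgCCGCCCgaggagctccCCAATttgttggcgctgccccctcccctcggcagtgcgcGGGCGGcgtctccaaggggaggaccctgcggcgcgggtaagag
Col4a5, chrX:141475169-141475468, plus strand: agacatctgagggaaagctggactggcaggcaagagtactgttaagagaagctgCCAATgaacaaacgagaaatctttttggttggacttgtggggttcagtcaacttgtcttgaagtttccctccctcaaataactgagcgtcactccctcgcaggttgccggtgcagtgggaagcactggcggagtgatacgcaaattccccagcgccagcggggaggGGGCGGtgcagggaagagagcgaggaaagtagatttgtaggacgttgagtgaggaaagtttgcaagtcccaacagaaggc
Col4a6, chrX:141474027-141474326, minus strand: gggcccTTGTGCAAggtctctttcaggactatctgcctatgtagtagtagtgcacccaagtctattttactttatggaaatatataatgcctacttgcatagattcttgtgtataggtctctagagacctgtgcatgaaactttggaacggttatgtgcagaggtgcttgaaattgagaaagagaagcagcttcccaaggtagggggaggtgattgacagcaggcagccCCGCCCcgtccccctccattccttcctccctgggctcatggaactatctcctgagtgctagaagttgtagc
Col3a1, chr1:45311288-45311587, plus strand: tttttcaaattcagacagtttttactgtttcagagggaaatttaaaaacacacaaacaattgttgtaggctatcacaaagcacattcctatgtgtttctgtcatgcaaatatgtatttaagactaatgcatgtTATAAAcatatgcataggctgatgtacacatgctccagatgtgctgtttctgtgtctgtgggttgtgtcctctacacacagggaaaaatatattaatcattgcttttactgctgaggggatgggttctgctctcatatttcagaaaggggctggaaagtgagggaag
Col27a1, chr4:63215162-63215461, plus strand: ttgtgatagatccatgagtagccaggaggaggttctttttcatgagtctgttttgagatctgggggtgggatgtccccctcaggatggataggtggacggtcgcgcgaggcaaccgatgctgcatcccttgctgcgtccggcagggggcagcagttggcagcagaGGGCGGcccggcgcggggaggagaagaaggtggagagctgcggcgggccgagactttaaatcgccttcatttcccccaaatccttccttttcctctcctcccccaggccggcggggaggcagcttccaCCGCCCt
Col13a1, chr10:61979059-61979358, minus strand: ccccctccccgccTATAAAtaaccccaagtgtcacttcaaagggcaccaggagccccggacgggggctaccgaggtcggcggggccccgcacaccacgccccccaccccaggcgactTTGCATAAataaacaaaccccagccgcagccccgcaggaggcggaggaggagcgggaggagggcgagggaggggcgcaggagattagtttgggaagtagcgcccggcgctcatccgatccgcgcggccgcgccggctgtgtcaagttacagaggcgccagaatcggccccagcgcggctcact

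The windows of Col4a1 and Col4a2 overlap and had a GC content of 74.0% and 73.7%, and each held CCAAT and at least 1 match to GGGCGG. The window of Col3a1 had a GC content of 37.7%, with TATAAA and no GGGCGG. The window of Col27a1 held 2 matches to GGGCGG and none of the other motifs. It begins at 63215162, inside the gene as annotated for counting, which begins at 63214004. The window therefore does not cover the start in that annotation. Windows were matched for 31 of the 39 members. The strict C/EBP palindrome TTGCGCAA was in none of these 31, beside 0.207% of 27025 genes in the same table. TTGCNNAA was in 3 of 31 members (9.68%), namely Col4a6, Col6a2 and Col13a1, beside 12.2% of genes. CCAAT was in 12 of 31 (38.7%, beside 41.1%), TATAAA in 5 (16.1%, beside 15.7%) and GGGCGG in 19 (61.3%, beside 38.2%). GGGCGG was in 13 of the 17 matched members that rose and in 5 of the 7 that fell. A match is a description of these letters in these windows only.

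FACIT chains attach to the surface of fibrils. Col12a1, a FACIT chain of dense connective tissue and muscle, stood at 517 and 358 CPM in the controls and at 2454 and 2621 CPM in the C/EBPβ cells, 5.80-fold higher (log2 fold change 2.54, SE 0.19, adjusted p = 6.61e-05). In fragments it overtook Col5a1, Col6a1 and Col5a2, and its part of all collagen fragments went from 4.80% and 3.99% in the controls to 9.40% and 9.83%. Col14a1, which is related to Col12a1, stood at 1.26 and 0.850 CPM against 13.6 and 8.83 CPM (log2 fold change 3.43, SE 0.29, adjusted p = 0.000199). Col16a1, found near small fibrils and basement membranes, stood at 25.2 and 23.3 CPM against 75.6 and 65.8 CPM (log2 fold change 1.54, SE 0.09, adjusted p = 2.08e-05). The groups did not overlap for any of these 3 genes, beside 75.1% of all genes tested that did not overlap. Col19a1 (0.23, SE 0.24) and Col20a1 (0.56, SE 0.37) did not pass, with an adjusted p of 0.468 and 0.252. Col22a1, known from the muscle-tendon junction, was under the filter with 16 fragments in the controls and 2 in the C/EBPβ cells, a ratio of 7.47 in favour of the controls (95% exact binomial interval 1.76 to 66.9). Col9a3 had 17 fragments against 23.

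Type VI collagen is built from 1 chain each of Col6a1, Col6a2 and Col6a3. All 4 beaded-filament members rose, beside 22.3% of all genes tested, but Col6a4 was tested only through the C/EBPβ libraries, where it was high. Col6a1 stood at 668 and 547 CPM in the controls and at 1725 and 1690.3 CPM in the C/EBPβ cells (log2 fold change 1.49, SE 0.13, adjusted p = 0.000118). Col6a2 stood at 359 and 323 CPM against 853 and 905 CPM (1.37, SE 0.11, adjusted p = 7.00e-05). Col6a3, the longest of the chains, moved least, from 242 and 233 CPM to 308 and 364 CPM (0.50, SE 0.11, adjusted p = 0.00685), and did not pass without empty-vector replicate 2 (0.47, adjusted p = 0.0573). Col6a1 and Col6a2 lie in tandem on the minus strand of chromosome 10, 85161 bases apart. Col6a4, a minor chain, had 14 and 10 fragments in the controls and 114 and 41 in the C/EBPβ cells (log2 fold change 2.72, SE 0.43, adjusted p = 0.00209).

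The network-forming chains moved in both directions. Col8a1 and Col8a2 form the type VIII lattice of vessels and the cornea. Col8a1 stood at 80.9 and 75.9 CPM in the controls and at 198 and 226 CPM in the C/EBPβ cells (log2 fold change 1.43, SE 0.10, adjusted p = 2.94e-05), and Col8a2 at 5.97 and 3.22 CPM against 13.7 and 15.1 CPM (1.65, SE 0.27, adjusted p = 0.00498). Col10a1, the collagen of hypertrophic cartilage, fell from 0.987 and 0.989 CPM to 0.345 and 0.356 CPM (log2 fold change -1.49, SE 0.29, adjusted p = 0.00444). The replicates of Col10a1 agreed closely in both groups, on 44 and 50 fragments in the controls and 18 and 13 in the C/EBPβ cells.

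Transmembrane collagens span the plasma membrane and shed their outer part. Here 2 of the 4 fell and none rose, beside 20.9% of all genes tested that fell and 22.3% that rose. Of the 2 that fell, Col13a1 was tested only through the control libraries, where it was high. Col23a1 stood at 4.71 and 6.27 CPM in the controls and at 0.613 and 0.602 CPM in the C/EBPβ cells, 9.04-fold lower (log2 fold change -3.17, SE 0.24, adjusted p = 5.23e-05). Col13a1, which is known at the neuromuscular junction, had 37 and 27 fragments in the controls and 1 and 0 in the C/EBPβ cells (adjusted p = 0.000698), a ratio of 59.7 with a 95% exact binomial interval from 10.3 to 2396. The groups of both genes lay far apart, and Col13a1 was at or next to 0 in the C/EBPβ libraries. Col25a1, needed for motor innervation of muscle, stood at 0.763 and 1.07 CPM against 0.325 and 0.602 CPM. With a log2 fold change of -1.04 (SE 0.37) it missed the threshold (adjusted p = 0.0515). With 1 library left out its log2 fold change ran from -0.61 (adjusted p = 0.275, without C/EBPβ replicate 1) to -1.51 (adjusted p = 0.00230, without C/EBPβ replicate 2). Col17a1, a chain of epithelial hemidesmosomes, did not pass either (0.36, SE 0.25, adjusted p = 0.281).

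Of the 5 members outside the classes, 2 fell and none rose, beside 20.9% of all genes tested that fell and 22.3% that rose. Col18a1, the basement membrane collagen that yields endostatin, stood at 94.5 and 111 CPM in the controls and at 35.2 and 49.4 CPM in the C/EBPβ cells (log2 fold change -1.28, SE 0.17, adjusted p = 0.00267). Col7a1, the anchoring fibril chain, stood at 11.5 and 9.51 CPM against 7.06 and 7.74 CPM (log2 fold change -0.51, SE 0.14, adjusted p = 0.0218). It lost its call without empty-vector replicate 1 (adjusted p = 0.153) and without C/EBPβ replicate 1 (0.0590). Col18a1 lies on the same strand of chromosome 10 as Col6a1 and 326009 bases from it, and these neighbours moved in opposite directions. Col15a1, the relative of Col18a1, Col26a1 and Col28a1 did not pass, with log2 fold changes of 0.35, 0.74 and 0.82 and adjusted p of 0.473, 0.113 and 0.387. Without C/EBPβ replicate 2, but with no other library left out, Col26a1 and Col28a1 passed (adjusted p = 0.00523 and 0.0157), and Col28a1 turned negative without C/EBPβ replicate 1, as Col15a1 did without empty-vector replicate 2.

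Chains that assemble together did not all change by the same factor. Ratios were taken of fragments per base of annotated exons, and their change between groups does not depend on the length used. Col1a1 per Col1a2 stood at 0.367 and 0.415 in the controls and at 0.303 and 0.306 in the C/EBPβ cells, so the groups did not overlap. The level of this ratio does depend on the length, since the annotated exons of Col1a2 cover 12426 bases and its longest coding transcript 5348, and with the latter the control ratio was 0.186 ± 0.0160 (SD, n = 2). Col3a1 per Col1a2 went from 3.06 and 2.80 to 5.08 and 5.04. Col5a1 per Col5a2 went from 0.795 and 0.853 to 0.490 and 0.503, and Col6a3 per Col6a1 from 0.133 and 0.156 to 0.0654 and 0.0789. The ratios Col1a1 per Col1a2, Col5a1 per Col5a2 and Col6a3 per Col6a1 were thus lower in both C/EBPβ libraries than in either control. Col6a1 per Col6a2 was slightly higher, at 3.53 and 3.22 in the controls and 3.84 and 3.55 with C/EBPβ. Col4a5 per Col4a6 was 35.4 and 53.6 against 53.8 and 58.1, groups that only just failed to overlap. Col11a1 per Col11a2 moved the most, from 0.0180 and 0.0225 to 0.114 and 0.156, but its control values rest on only 7 and 10 fragments of Col11a1. By contrast Col4a1 per Col4a2 was 1.47 and 1.57 in the controls and 1.53 and 1.45 in the C/EBPβ cells, and Col5a3 per Col5a1 and Col8a2 per Col8a1 overlapped between the groups as well. Col4a5 per Col4a1 was 0.0826 and 0.0908 against 0.0243 and 0.0246. None of these ratios was tested, for the reason given for the share of fragments.

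**Figure D4:**
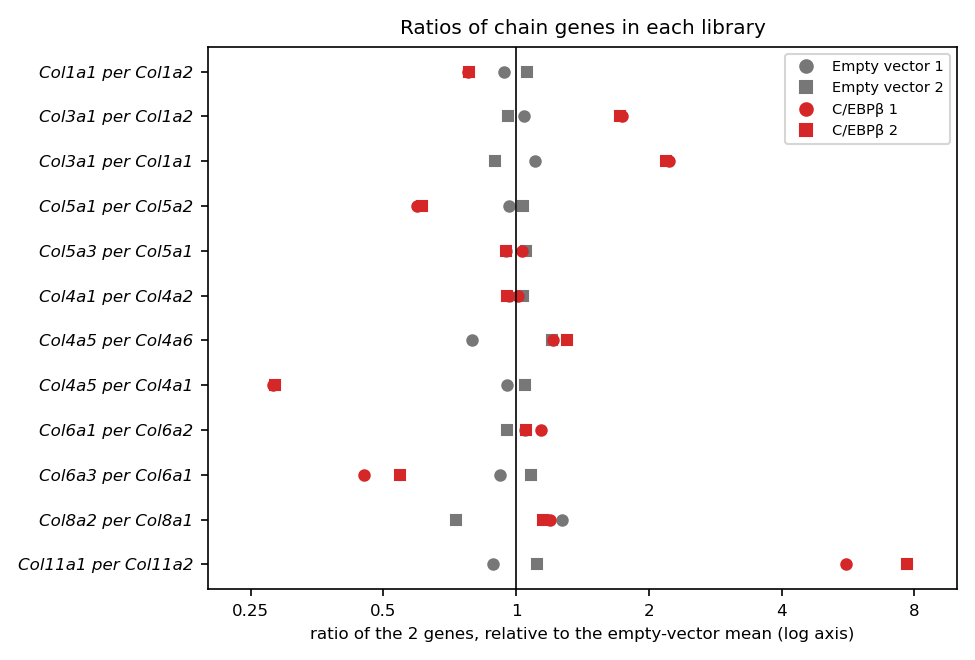
Ratio of 2 collagen chain genes in each library, per base of annotated exons and divided by the mean of the empty-vector libraries (log axis), so that grey marks scatter around 1; red marks are C/EBPβ libraries. Red and grey lie apart for Col1a1 per Col1a2, Col5a1 per Col5a2, Col6a3 per Col6a1 and Col11a1 per Col11a2, and lie together for Col4a1 per Col4a2 and Col5a3 per Col5a1.

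The order of the most abundant members per length depended on the length used. Per kilobase of annotated exons, Col3a1 led in the controls (362 ± 61.4 CPM per kilobase, SD, n = 2, as for the values that follow). Col6a1 (139 ± 19.6), Col1a2 (123 ± 13.3) and Col5a2 (107 ± 11.8) came next, and neighbours among these 3 overlapped within 1 SD. Their order was the same in both controls, at 152.5, 132.6 and 115.8 in replicate 1 and 124.8, 113.8 and 99.1 in replicate 2. Per kilobase of the longest coding transcript, an alternative chosen after seeing the data, Col3a1 still led (639 ± 108), and Col1a2 came next (286 ± 31.0), above Col5a2 (156 ± 17.0) and Col6a1 (148 ± 20.9). In the C/EBPβ cells Col5a2 and Col1a2 did not differ beyond their spread per annotated exon base (249.6 ± 11.0 and 245 ± 0.859), whereas per coding transcript Col1a2 stood above Col5a2 (569 ± 2.00 against 361 ± 15.9). Under both lengths Col3a1 came first in both groups, and Col12a1 had rank 5 in the C/EBPβ cells (167 ± 7.76 per annotated exon and 220.4 ± 10.3 per coding transcript).

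Genes that make, process, bind and degrade collagen moved mostly with the chains, apart from the receptors. Over the 4 lists, 53 of 60 genes were tested, and 35 were higher and 8 lower, beside 22.3% and 20.9% of all genes tested. The median log2 fold change was 0.51, beside 0.01 for all genes tested. For 6 of the 53, the filter on low counts was passed through both libraries of 1 group only (Adamts3, Fap, Mmp8, Mmp9 and Mmp13 through the C/EBPβ libraries and Tll1 through the controls), and among the other 47 genes 30 were higher and 7 lower. Of 22 tested genes for hydroxylation, glycosylation and folding, 16 rose and 1 fell (median 0.53). P4ha3, a catalytic subunit of prolyl 4-hydroxylase, had a mean of 17.8 CPM without and 64.5 CPM with C/EBPβ (log2 fold change 1.86, SE 0.10). Crtap, part of the prolyl 3-hydroxylation complex, had 1.16 (SE 0.09) and Fkbp14, a prolyl isomerase of the endoplasmic reticulum, 0.81 (SE 0.08). Serpinh1, the collagen chaperone HSP47, named here after its values were seen, did not pass (0.31, SE 0.12, adjusted p = 0.0702). It passed in DESeq2 (0.0201), with library sizes alone (0.0282), with no filter on low counts (0.0387) and without C/EBPβ replicate 1 (0.0131). The gene that fell was P3h4 (-0.33, SE 0.08), which did not pass once a control library was left out (adjusted p = 0.0675 without replicate 1 and 0.0577 without replicate 2).

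Of 13 tested genes for procollagen processing and crosslinking, 10 rose and 2 fell (median 0.49), beside 22.3% and 20.9% of all genes tested. But Adamts3 was tested only through the C/EBPβ libraries and Tll1 only through the controls, where each was high. Of the other 11 genes 9 rose and 1 fell (median 0.49). Adamts2, which removes the amino-terminal propeptide of procollagen, had a mean of 50.9 CPM without and 235 CPM with C/EBPβ (log2 fold change 2.21, SE 0.16). Lox and Loxl2, enzymes that crosslink collagen, had 2.55 (SE 0.12) and 1.42 (SE 0.12). Adamts14, a relative of Adamts2, went the other way, from 164 to 48.3 CPM (-1.77, SE 0.18, adjusted p = 0.000802). Tll1, a relative of the carboxy-terminal procollagen proteinase Bmp1, fell too (-2.02, SE 0.61), on 27 fragments in the controls and 6 in the C/EBPβ cells. Its adjusted p of 0.0288 became 0.176 without empty-vector replicate 1, 0.0577 without empty-vector replicate 2, 0.201 without C/EBPβ replicate 1 and 0.154 in DESeq2.

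Among collagen receptors, 2 of 7 tested rose and 4 fell (median -0.41), beside 22.3% and 20.9% of all genes tested. Itga1, the integrin chain that binds type IV collagen, had a mean of 0.629 CPM without and 21.1 CPM with C/EBPβ (log2 fold change 5.08, SE 0.24, adjusted p = 8.70e-06), and Itga11, a receptor for fibrillar collagen, at 1.59 and 12.3 CPM (2.95, SE 0.25). Itga10, a further collagen-binding integrin chain, fell from 18.1 to 3.78 CPM (-2.27, SE 0.23). The other genes that fell, named here after their values were seen, were Adgrg1 (-1.65), Ddr1 (-0.49) and Itgb1 (-0.41), the common partner of these integrin chains. Leaving out empty-vector replicate 1 ended all 3 of these calls (adjusted p = 0.133, 0.0515 and 0.109). Leaving out empty-vector replicate 2 ended those of Adgrg1 (0.129) and Itgb1 (0.138), and leaving out C/EBPβ replicate 1 that of Itgb1 (0.0748). Of 11 tested genes for degradation and uptake, 7 rose and 1 fell (median 0.92), beside 22.3% and 20.9% of all genes tested. But 4 of the 7 (Fap, Mmp8, Mmp9 and Mmp13) were tested only through the C/EBPβ libraries where they were high, and of the other 7 genes 3 rose and 1 fell (median 0.39). Mmp8, a collagenase, had 1 fragment in the controls and 300 in the C/EBPβ cells, a ratio of 321 (95% exact binomial interval 57.2 to 12737). Mmp13, another collagenase, rose from 0.128 to 1.14 CPM (3.13, SE 0.39) and Mmp9, a gelatinase, from 0.0534 to 0.454 CPM (3.06, SE 0.50). The gene that fell was Mmp15 (-1.44, SE 0.19), a membrane-type metalloproteinase, and its adjusted p was 0.0730 without empty-vector replicate 1 and 0.0720 without empty-vector replicate 2. Over the 4 lists the count of genes lower was 2 without empty-vector replicate 1 and 3 without empty-vector replicate 2.

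The authors' deposited table lists all 39 members with a log2 fold change of their own, and in it 20 were higher and 7 lower at an adjusted p under 0.05. The share of all rows called in that table was not counted, so whether these counts stand out there cannot be told. The mean signal in the authors' deposited table is not that of these 4 libraries as counted here, since for the 35 tested members it ran from 0.545 (Col13a1) to 1.79 (Col17a1) of the mean normalised count here. Of the calls in the authors' deposited table, 19 and 7 were also made here, and since libraries may be shared, these calls are not independent. Col11a2 (0.46, adjusted p = 0.176) and Col24a1 (0.81, adjusted p = 0.0521) did not pass in the authors' deposited table, whereas Col2a1 (1.71, adjusted p = 0.0386), which was too sparse to be tested here, passed there. For the 35 members tested in both, the sign was the same in 35, and in 32 the absolute log2 fold change was smaller in the authors' deposited table.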

How the data were processed

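Stranded messenger RNA libraries were grouped by their titles. For each library the authors deposited raw counts of fragments per gene. The submitters' processing notes name HISAT2 2.0.4, featureCounts 1.4.6 and GRCm38, while the file headers name featureCounts 1.5.1, with paired fragments, the reverse strand and GENCODE M12. In the table of the comparison, also deposited by the authors, the columns are a mean normalised signal, a log2 fold change and its error, a test score and p-values, raw and adjusted, per the file headers. DESeq2 is in the processing notes with no version, and the libraries behind that table are not stated. Its mean signal is not that of the 4 libraries as counted here.

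Counts were filtered with edgeR's filterByExpr (minimum count 10, minimum total 15), scaled by TMM and tested for group in edgeR 4.0.16 under R 4.3.3 (robust glmQLFit, 2-sided glmQLFTest, Benjamini-Hochberg over all 15886 genes, threshold 0.05). The fit was tested on simulated counts. SE is the absolute log2 fold change divided by the root of the F statistic. Levels per kilobase are CPM over the annotated exon length or the longest coding transcript (GENCODE M21). Intervals on ratios cover counting error only. Symbols were found for 49326 of 49585 gene identifiers. Replicates were not copies of each other (chi-square per degree of freedom 20.0 in the controls and 28.5 with C/EBPβ).

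The members, classes, accessory lists and markers were chosen with earlier results of these data known. The result of 1 marker list is not reported here. By rule, values per library are given for the 2 most abundant members of a class, its called member with the largest change and partner chains of a molecule, and the text adds further members. Of each accessory list, the 3 genes with the smallest p and the side with fewer calls (5 or fewer) are named. Of the listed symbols, Gpr56 was not found, being an older name of the listed Adgrg1. Alternatives were other scalings and filters, a fit without robust estimation, DESeq2 1.42.0, limma-voom (limma 3.58.1), a replicate block and leaving out each library. A further 5 genes with names of the same pattern are not rows of the authors' table and had at most 10 fragments each over the 4 libraries.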

Additional observations from a re-analysis of the deposited data

How the results depend on the processing

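Of the 28 members called, 22 had the same call and direction under every one of the 12 alternatives in which they were tested, and the other 6 (Col4a6, Col5a1, Col6a3, Col7a1, Col11a2 and Col24a1) lost it in at least 1. With 1 library left out, members higher ran from 17 to 23 and members lower from 5 to 8. Requiring 1 CPM in 2 libraries left 4 members lower, since fewer members (29) were tested. Genes changed over all ran from 4005 (without empty-vector replicate 2) to 7414 with 1 library left out, accessory genes higher from 25 to 35 and lower from 2 to 10. The 2.78-fold share of collagen fragments ran from 2.55 to 3.05 and was 2.34 without Col3a1, an alternative chosen after seeing the data, as was the other gene length used for chain ratios. With 1 library left out, the log2 fold change of Col15a1 ran from -0.10 (adjusted p = 0.861, without empty-vector replicate 2) to 0.95 and that of Col28a1 from -0.68 (adjusted p = 0.566, without C/EBPβ replicate 1) to 1.48, by edgeR, and the cause was not tested. With the replicate number as a block, 7677 genes changed, 21 members were higher and 8 lower, accessory genes were 37 higher and 9 lower, and Col25a1 passed (adjusted p = 0.0185). The deviations of the replicates numbered 1 from their group means correlated at 0.186 over 15886 genes, and 2 numbers are too few to pair libraries. Col6a4, Col11a1, Col13a1, Col28a1 and the untested members rest on few fragments, so that counting limits their differences.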

Other observations

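A list of 37 genes for proteins with a collagen-like stretch that are not collagens was drawn up after the files were seen. Of these, 16 were tested, and 8 rose and 4 fell, beside 22.3% and 20.9% of all genes tested, so that the share that fell is near that of all genes. The median log2 fold change was 0.61 beside 0.01, and 12 had no fragment in any library. Emid1 passed the filter on low counts through the C/EBPβ libraries only and Fcna through the controls only. Among the other 14 tested genes 7 rose and 4 fell. Colec12, a scavenger receptor, averaged 165 CPM without and 597 CPM with C/EBPβ (log2 fold change 1.85, SE 0.15, adjusted p = 0.000131 in edgeR's quasi-likelihood test). Emilin1, a glycoprotein of elastic fibres, rose from 12.7 to 111 CPM (3.14, SE 0.18) and Emilin2 from 45.9 to 133 CPM (1.53, SE 0.11). Colq, the collagen-like tail that anchors acetylcholinesterase at the neuromuscular junction, fell from 13.6 to 5.08 CPM (-1.43, SE 0.19, adjusted p = 0.000815), and Gldn, Colec10 and Msr1 fell too. C1qtnf3, the most abundant gene of the list in the controls, stood at 1539 CPM against 777 CPM and did not pass (-0.99, SE 0.30, adjusted p = 0.0513).

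Markers of other cell types were mostly at low levels. Of 3 tendon markers, Scx fell from 242 to 72.7 CPM and Mkx rose from 0.365 to 0.866 CPM, and Tnmd had at most 5 fragments in any library. Of 4 endothelial markers 1 was tested and fell, Tek, on 24 and 34 fragments in the controls and 17 and 5 with C/EBPβ. Of 4 macrophage markers 2 were tested and 1 rose, Csf1r, on 15 and 20 fragments in the controls and 33 and 41 with C/EBPβ. Ptprc had at most 1 fragment in any library and Adgre1 had 0. Over all genes tested, 20.9% fell and 22.3% rose. Among 3 adipocyte markers Plin1 had no fragment in the controls and 67 with C/EBPβ, which is at least 23.9-fold higher when 3 fragments are taken as the floor for the control group. Plin1 was thus tested only through the C/EBPβ libraries, where it stood at 0.823 and 0.656 CPM. The others were too sparse to be tested. Adipoq had 1 and 1 fragments in the controls and 18 and 1 with C/EBPβ, and Cidec had at most 1 in any library. Of bone and cartilage markers, Dmp1 and Sox9 fell, and Sp7 did not pass (-0.91, adjusted p = 0.133).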
